A study of Arabidopsis thaliana with 32 samples.

Results

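The 10 genes described here encode enzymes of the main route of auxin synthesis in Arabidopsis thaliana. They were taken by name and locus identifier, out of 33602 genes counted: TAA1 (AT1G70560), TAR1 (AT1G23320) and TAR2 (AT4G24670) of the TAA/TAR family, and YUC1 (AT4G32540), YUC2 (AT4G13260), YUC4 (AT5G11320), YUC8 (AT4G28720), YUC9 (AT1G04180), YUC10 (AT1G48910) and YUC11 (AT1G21430) of the YUC family. RNA was sequenced from endosperm and embryo that laser capture microdissection had cut from the same kinds of seed. The seeds came from controlled crosses of the accessions Col-0 (Col) and C24 and of CNS lines, which carry the nucleus of one accession in the cytoplasm of the other.

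Each tissue was sampled from 8 crosses, written mother first, with 2 libraries for each, which makes 16 groups and 32 libraries. The standard set held the hybrids Col x C24 and C24 x Col and the selfed accessions Col x Col and C24 x C24. The CNS set held the hybrids Col or C24(Col) x Col(C24) and Col(C24) x Col and the selfed lines C24(Col) x C24(Col) and Col(C24) x Col(C24). Reads assigned to one parental allele showed how to read these names. In hybrids 0% to 0.604% or 99.41% to 99.95% of organelle reads were of the C24 type. In hybrid endosperm, which holds 2 maternal genomes and 1 paternal, the nuclear C24 share was 61.47% to 64.1% in C24 x Col and Col(C24) x Col and 29.93% to 31.68% in the crosses in the other direction. By these reads Col(C24) has Col cytoplasm with a C24 nucleus, and C24(Col) has C24 cytoplasm with a Col nucleus. The group Col or C24(Col) x Col(C24) is uneven: its replicate 1 is labelled ColxCol(C24) and its replicate 2 C24(Col)xCol(C24), so that both mothers had a Col nucleus and their cytoplasms differed. All plants grew under a cycle of 16 h light and 8 h dark. The labels do not give the stage of the seeds, how many seeds or plants were pooled, or whether the 2 libraries of a group came from separate plants. A p-value here reflects the spread between samples, which may be technical.

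TAA1, TAR1 and TAR2 are aminotransferases that turn tryptophan into indole-3-pyruvate. The YUC proteins are flavin monooxygenases that turn indole-3-pyruvate into the auxin indole-3-acetic acid, and this step is held to limit the rate of the route. In seeds, auxin made in the endosperm after fertilization is known to be needed for endosperm proliferation and seed coat development, and auxin made in the embryo for setting up its axis and organs. YUC10 and TAR1 have been described in Arabidopsis as genes read mainly from the paternal genome in endosperm.

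The stretch of 250 bases before the annotated start is shown for the 6 genes with the highest levels in either tissue. The results below turn on these genes. The sequences are those of the reference accession Col from RefSeq (TAIR10.1 build, the files were made on TAIR10), 5′ to 3′ on the strand of the gene, and none overlaps another annotated gene. Capitals mark the letters TATAAA, the core of the TATA box that places the transcription start, and TGTCNC, the core of the element bound by auxin response factors, each searched on both strands. TAA1 lies at chr1:26604605-26604854 on the plus strand, TAR1 at chr1:8275351-8275600 on the minus strand, YUC10 at chr1:18091431-18091680 on the plus strand, TAR2 at chr4:12731332-12731581 on the minus strand, YUC1 at chr4:15700579-15700828 on the plus strand and YUC4 at chr5:3613641-3613890 on the minus strand.
TAA1: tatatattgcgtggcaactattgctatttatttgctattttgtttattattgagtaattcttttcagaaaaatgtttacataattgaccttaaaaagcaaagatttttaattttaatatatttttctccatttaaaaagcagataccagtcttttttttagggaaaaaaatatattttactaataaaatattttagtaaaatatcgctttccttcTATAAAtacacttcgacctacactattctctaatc
TAR1: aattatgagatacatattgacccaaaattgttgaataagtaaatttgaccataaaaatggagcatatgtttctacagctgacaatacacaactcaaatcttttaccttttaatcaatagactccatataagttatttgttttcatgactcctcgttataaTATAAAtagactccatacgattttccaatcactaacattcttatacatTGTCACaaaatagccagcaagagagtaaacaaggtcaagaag
YUC10: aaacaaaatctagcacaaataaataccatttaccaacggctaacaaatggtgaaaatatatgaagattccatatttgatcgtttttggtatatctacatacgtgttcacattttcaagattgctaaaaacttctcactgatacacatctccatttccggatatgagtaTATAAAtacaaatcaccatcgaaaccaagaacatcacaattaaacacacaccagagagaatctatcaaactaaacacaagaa
TAR2: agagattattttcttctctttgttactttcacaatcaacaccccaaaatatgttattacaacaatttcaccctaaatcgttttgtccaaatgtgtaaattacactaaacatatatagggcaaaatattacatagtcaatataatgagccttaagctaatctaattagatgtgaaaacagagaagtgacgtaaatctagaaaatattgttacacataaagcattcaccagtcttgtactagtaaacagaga
YUC1: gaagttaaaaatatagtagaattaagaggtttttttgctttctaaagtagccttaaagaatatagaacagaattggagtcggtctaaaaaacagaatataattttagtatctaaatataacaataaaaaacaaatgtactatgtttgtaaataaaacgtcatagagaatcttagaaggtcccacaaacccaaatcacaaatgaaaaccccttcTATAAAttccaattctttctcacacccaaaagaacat
YUC4: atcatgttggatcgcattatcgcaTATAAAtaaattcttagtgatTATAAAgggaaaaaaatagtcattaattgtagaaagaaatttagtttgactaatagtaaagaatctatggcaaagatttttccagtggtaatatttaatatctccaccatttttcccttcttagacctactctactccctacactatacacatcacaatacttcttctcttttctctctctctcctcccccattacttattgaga

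TAR2 and YUC11 held no TATAAA. These letters stood 35 to 30 bases before the start in TAA1, 37 to 32 bases before it in YUC1 and 82 to 77 bases before it in YUC10. They occurred in 8 of the 10 windows and in 47.3% of the 27443 windows of the same length before protein-coding genes. TGTCNC occurred in TAR1, 42 to 37 bases before the start, and in YUC2, against 23.9% of all windows. The RY element CATGCA, bound by B3 factors of seed maturation, occurred in YUC9 alone of the 10 (8.43% of all windows). The G-box CACGTG occurred in none of the 10 (6.49%), and the CArG box, the motif of MADS factors, in YUC2 (2.52%). No searched motif overlapped another in the 6 windows shown. A match here is a description of the letters and not a site.

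Counts were scaled to counts per 1e6 reads (CPM) by TMM, a method that sets libraries to a common scale by their bulk of genes, and divided by exon length in kb where genes are compared with each other. Total counts ran from 8.64 to 54.29 M (M is 1e6) per library, with a median of 28.04 M. The tissues were checked against marker lists. The 14 embryo markers summed to 59.9 to 186 CPM in endosperm libraries and 1033 to 2106 CPM in embryo libraries. The 12 endosperm markers summed to 1410 to 2946 CPM in endosperm libraries and 73.2 to 203 CPM in embryo ones. The 12 seed coat markers summed to 104.5 to 500.5 CPM in endosperm libraries and 21.0 to 54.3 CPM in embryo ones. Each tissue thus held low levels of markers of its neighbours, and their part in the results below was not tested. In bulk tissue, fewer cells of a type and less RNA per cell cannot be told apart.

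Per length, TAA1 was on average the highest of its family in endosperm. In embryo it and TAR2 were close and their order differed between the sets. The highest YUC genes differed between the tissues. In endosperm the first step was represented by TAA1, at 87.7 ± 43.2 CPM per kb, and the second by YUC10, at 6.34 ± 2.80 CPM per kb (SD, n = 16 libraries). In embryo TAA1 (21.2 ± 4.83 CPM per kb) and TAR2 (20.2 ± 5.35 CPM per kb) stood side by side, as did YUC4 (9.23 ± 1.69 CPM per kb) and YUC1 (8.70 ± 2.16 CPM per kb). TAR2 was above TAA1 in embryo of the standard set (21.8 against 19.5 CPM per kb) and below it in the CNS set (18.6 against 22.9). Likewise YUC4 was above YUC1 in the standard set (9.65 against 7.82 CPM per kb) and below it in the CNS set (8.82 against 9.57). As a share of the family's level per length, TAA1 made up 95.9% ± 5.68 of TAA/TAR in endosperm and 51.3% ± 8.58 in embryo. YUC10 made up 93.1% ± 7.48 of the 7 YUC genes in endosperm and 1.43% ± 1.69 in embryo.

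**Figure D1:**
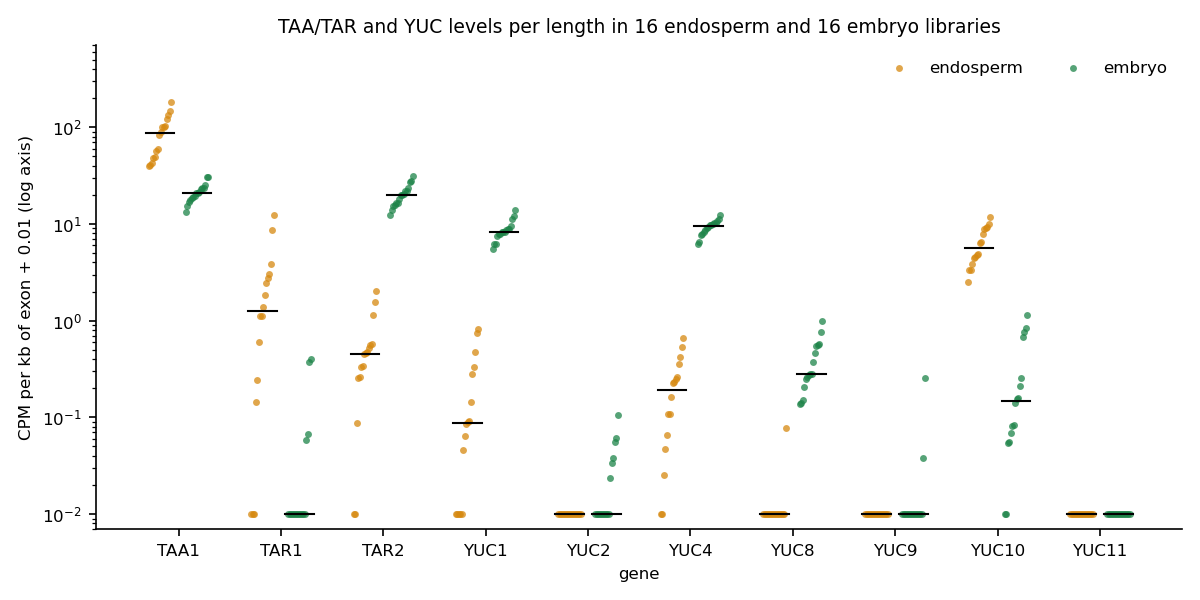
Level of each gene in CPM per kb of exon (log axis, 0.01 added so that libraries without a read appear at the foot), with 1 point per library, endosperm left of embryo and a bar at the median of 16. TAA1 and YUC10 lead in endosperm, and TAA1, TAR2, YUC4 and YUC1 in embryo.

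The order of levels per length in endosperm was TAA1, YUC10, TAR1 (2.46 ± 3.41 CPM per kb), TAR2 (0.558 ± 0.558), YUC4 (0.207 ± 0.193), YUC1 (0.191 ± 0.263) and YUC8 (0.00418 ± 0.0167). TAA1 stood clear of YUC10, while the spreads of every neighbour from YUC10 down overlapped. These levels are taken over crosses that differ: in Col x Col endosperm TAR1 (10.5 CPM per kb) was above YUC10 (7.69 CPM per kb), and in C24 x C24 endosperm TAR1, with no read, was below TAR2 (1.79 CPM per kb). In embryo the order over both sets was TAA1, TAR2, YUC4, YUC1, YUC8 (0.382 ± 0.244 CPM per kb), YUC10 (0.284 ± 0.354), TAR1 (0.0542 ± 0.129), YUC9 (0.0170 ± 0.0610) and YUC2 (0.0161 ± 0.0275). There the spreads of TAA1 and TAR2, of YUC4 and YUC1, and of every neighbour from YUC8 down overlapped. Summed over its members, the TAA/TAR family had 90.7 ± 42.8 CPM per kb in endosperm and 41.5 ± 6.84 in embryo, and the 7 YUC members 6.74 ± 2.78 CPM per kb in endosperm and 18.6 ± 2.46 in embryo. The ranges of the TAA/TAR sum overlapped between the tissues (41.4 to 184.1 and 30.5 to 53.0 CPM per kb), and those of the YUC sum did not (2.67 to 12.1 and 13.25 to 22.6 CPM per kb). YUC3 and YUC6, which averaged 10.3 and 2.95 CPM in embryo, are not in the YUC sum.

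TAA1, the founding member of its family, had 62.6, 147 and 283 CPM (lowest, median and highest of 8 libraries) in endosperm of the standard set, against 20.7, 28.9 and 38.9 CPM in embryo. In the CNS set it had 62.1, 108 and 229 CPM in endosperm, against 25.85, 32.8 and 47.5 CPM in embryo. The tissues did not overlap in either set. In edgeR's quasi-likelihood test with Benjamini-Hochberg adjustment, TAA1 was 4.74-fold higher in endosperm in the standard set (log2 difference 2.24 ± 0.18 SE, adjusted p = 5.7e-08) and 3.36-fold higher in the CNS set (1.75 ± 0.15, adjusted p = 1.1e-06). A gene is called below where this adjusted p, taken over all genes tested, is under 0.05.

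YUC10 had 3.16, 8.09 and 11.5 CPM in endosperm of the standard set, against 0.0561, 0.218 and 1.04 CPM in embryo. In the CNS set it had 4.21, 6.09 and 14.7 CPM in endosperm, against 0, 0.0908 and 1.44 CPM in embryo. Every endosperm library was above every embryo library. The log2 difference was 4.97 ± 0.28 in the standard set (adjusted p = 1.4e-09) and 5.63 ± 0.68 in the CNS set (adjusted p = 1.5e-05). TAR1, the least studied of the aminotransferases, had 299 reads over the 8 endosperm libraries of the standard set and 9 over the 8 embryo libraries, and 444 against 18 reads in the CNS set. It was read in 13 of 16 endosperm libraries and 4 of 16 embryo libraries. Its log2 difference was 6.80 ± 1.39 in the CNS set (adjusted p = 0.002). There all 18 embryo reads were in 1 C24(Col) x C24(Col) library, so that the size depends on how the fit treats groups without a read. In the standard set, where C24 x C24 endosperm and both hybrid embryos had no read, the fit gave no defined difference. A 2-sided exact permutation test of its CPM, with tissue labels exchanged within crosses, gave p = 0.00926 in the standard set and p = 0.00463 in the CNS set, where the smallest p the design allows is 0.00154.

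TAR2, YUC4, YUC1 and YUC8 fell in endosperm. TAR2, needed with TAA1 for embryo patterning, had 0.565, 1.06 and 4.67 CPM in endosperm of the standard set, against 35.5, 50.9 and 64.2 CPM in embryo. Its log2 difference was -5.08 ± 0.13 (adjusted p = 6.6e-12), and -5.65 ± 0.71 in the CNS set (adjusted p = 2.1e-05). YUC4, which acts with YUC1 in the embryo and in flowers, had 0.0328, 0.27 and 0.88 CPM in endosperm libraries and 14.1, 21.5 and 27.0 CPM in embryo ones of the standard set, a log2 difference of -6.28 ± 0.29 (adjusted p = 1.9e-10). YUC1 had 0, 0.118 and 0.474 CPM in endosperm libraries and 7.94, 12.0 and 12.9 CPM in embryo, a difference of -6.10 ± 0.42 (adjusted p = 1e-08). In the CNS set YUC4 had a log2 difference of -6.58 ± 0.41 and YUC1 of -5.50 ± 0.78 (adjusted p = 2e-07 and 5.7e-05). No endosperm library reached the lowest embryo library for any of these 3 genes.

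YUC8, known from seedling stem growth, had 1 read over all 16 endosperm libraries and 312 over the 16 embryo libraries, with 4 to 72 in each embryo library. It was called in both sets (adjusted p = 0.0001 and 0.00051). In the CNS set all endosperm libraries were at 0, and against a floor of 3 counts over the group it was at least 57.3-fold lower there than in embryo. YUC2 had 0 reads in endosperm and 18 in embryo, spread over 6 libraries, which makes it at least 4.71-fold lower in endosperm by the same floor. YUC9 had 0 reads in endosperm and 9 in embryo, 7 of them in a single C24 x C24 library. YUC11 had 0 reads in all 32 libraries, where 3 counts in 1 library would be 0.05655 to 0.359 CPM. Its locus overlaps AT1G21440 on the other strand. The sources used here do not say if the counter took strand into account. YUC2, YUC9 and YUC11 did not pass the filter on low counts and were not tested.

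In all, 7 of the 10 members were tested between the tissues. In the standard set 6 were called, 2 higher and 4 lower in endosperm, beside 78.8% of the 20235 genes tested, and in the CNS set 7 were called, 3 higher and 4 lower, beside 68.7% of 21816. Of all genes 39.1% were higher and 39.6% lower in endosperm in the standard set, and 34.8% higher and 33.9% lower in the CNS set. DESeq2 also called TAR1 in the standard set. With so many genes called, the count of members says little by itself. Beside these genes, 12 of the 14 embryo markers were lower and 8 of 8 tested endosperm markers and 10 of 12 seed coat markers were higher in endosperm of the standard set. Leaving out 1 library at a time left 6 members called in the standard set and 6 or 7 in the CNS set, where TAR1 was not called without Col(C24) x Col(C24) endosperm replicate 1, the one library of that group with a read. No member had a tissue difference that differed between the sets at the threshold (0 of 7 by edgeR's quasi-likelihood test, 0 at an unadjusted p under 0.05 and 0 by DESeq2, beside 0.0% of genes). For TAR1 and YUC8 edgeR's fit gave no defined value here, so that they could not be called. TAA1 came nearest with -0.49 ± 0.25 for CNS minus standard (adjusted p = 0.79).

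**Figure D2:**
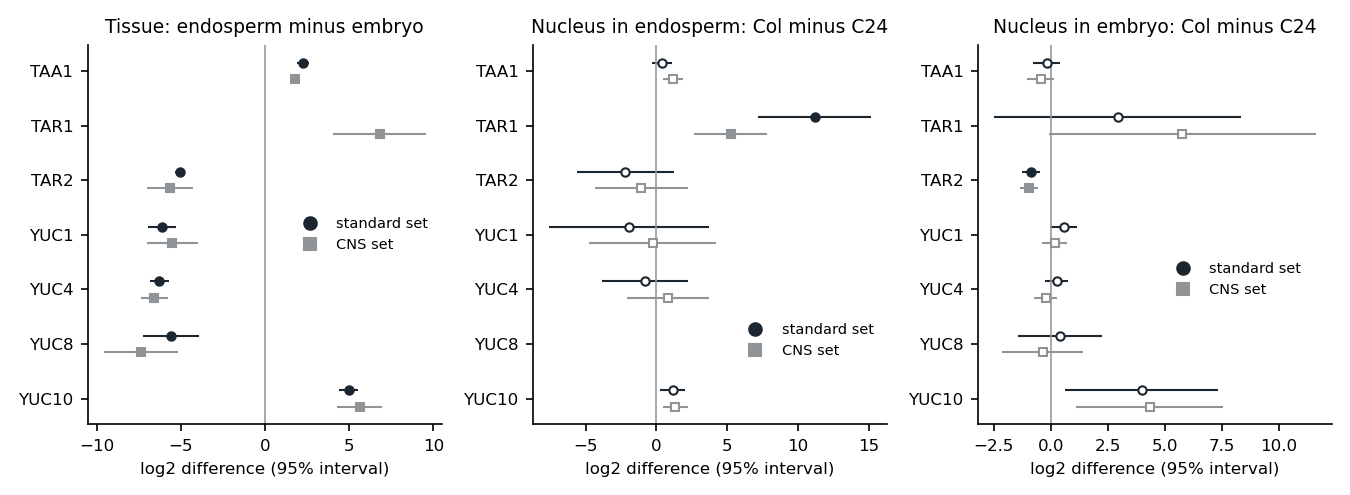
Log2 difference of each tested member with its 95% interval (points filled where called; dark circles, standard set; grey squares, CNS set) between tissues, between nuclei in endosperm and between nuclei in embryo. TAR1 between tissues in the standard set and YUC8 in endosperm have no fitted value, and the TAR1 value between nuclei in the standard endosperm, with no read in C24 x C24, depends on the count added by the fit. TAA1, TAR1 and YUC10 lie right of 0 and TAR2, YUC1, YUC4 and YUC8 left of it between tissues, and TAR2 lies left of 0 between nuclei in embryo.

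Other genes of the auxin route are given beside the 78.8% (standard set) and 68.7% (CNS set) of all genes called between the tissues. Log2 differences are of the standard set unless stated, and mean CPM values are over the 16 libraries of a tissue in both sets. Of 4 other YUC genes, YUC3 and YUC6 were tested and both fell in endosperm of the standard set (log2 difference -5.29 ± 0.40 and -4.92 ± 0.62), with a list median of -5.11 beside 0 for all genes. Of 17 tested genes of tryptophan synthesis and side routes, 4 rose and 11 fell (list median -1.09). Among those that rose were VAS1, an aminotransferase that draws indole-3-pyruvate back (2.42 ± 0.12), NIT4 of the nitrilase family (2.67 ± 0.21) and the amidase AMI1 (2.03 ± 0.13). ASA1, the entry enzyme of tryptophan synthesis, fell by 2.18 ± 0.15 on the log2 scale and averaged 6.91 ± 1.89 CPM in endosperm, against 34.8 ± 4.58 CPM in embryo.

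Genes that inactivate auxin or release it from conjugates went in both directions, 8 higher and 7 lower of 18 (list median 0.06). The glucosyltransferase gene UGT84B1 averaged 375 ± 92.8 CPM in endosperm, against 8.01 ± 4.33 CPM in embryo (5.48 ± 0.14, adjusted p = 6.6e-12), and the conjugating enzyme gene GH3.4 rose by 7.38 ± 0.45. GH3.3, of the same enzyme family, averaged 0.946 ± 1.71 CPM in endosperm, against 63.7 ± 14.6 CPM in embryo (-6.44 ± 0.55), and GH3.17 fell by 6.66 ± 0.47. Of 14 genes of auxin reception and response 13 fell and none rose (list median -1.50). MP, the response factor that patterns the embryo, averaged 5.45 ± 4.06 CPM in endosperm, against 225 ± 46.6 CPM in embryo. In the CNS set the counts were 2 lower of 2, 4 higher and 11 lower of 18, 7 higher and 8 lower of 18, and 1 higher and 13 lower of 14, in the same order of lists.

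Selfed seeds with a Col nucleus and with a C24 nucleus differed in endosperm in TAR1, which had reads with the Col nucleus and next to none with the C24 nucleus. TAR1 had 10.03 and 14.37 CPM in Col x Col endosperm (94 and 124 reads), against no read in either C24 x C24 library. By the floor of 3 counts over the group it was at least 134-fold higher with the Col nucleus. In the CNS lines it had 2.124 and 4.5 CPM in C24(Col) x C24(Col) endosperm (62 and 114 reads) and 0.156 and 0 CPM in Col(C24) x Col(C24) endosperm (6 and 0 reads). All 4 libraries with a Col nucleus were above all 4 with a C24 nucleus, whichever the cytoplasm. Reads of every library were counted on TAIR10, the Col reference. Reads of a C24 copy that do not map there cannot be told apart from a low level, for TAR1 or the genes below. Over all genes tested in hybrids, the median Col minus C24 log2 difference between alleles was 0.15 in endosperm and 0.12 in embryo. The part of mapping in the TAR1 values was not tested. TAR1 was called in the standard set (adjusted p = 0.0038) and in the CNS set (log2 difference 5.25 ± 1.31, adjusted p = 0.027), and in the mean of both sets (adjusted p = 0.00035). The CNS call was lost without C24(Col) x C24(Col) replicate 2 (4.59) or without Col(C24) x Col(C24) replicate 2 (4.35) and where only these groups were fitted (5.3).

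Hybrid endosperm had more TAR1 than any selfed endosperm with a C24 nucleus, and in the standard set less than Col x Col. With a Col-nucleus mother it had 2.88 and 1.30 CPM in Col x C24, 1.59 CPM in ColxCol(C24) and 3.19 CPM in C24(Col)xCol(C24). With a C24-nucleus mother it had 1.29 and 0.688 CPM in C24 x Col and 0.274 and 3.51 CPM in Col(C24) x Col. The directions overlapped in the CNS set, while in the standard set both values with a Col mother were above both with a C24 mother, by a narrow margin. No difference between them was called (0.69 ± 0.76 over both sets, adjusted p = 0.7). None of the TAR1 reads was assigned to an allele in any of the 16 hybrid libraries, so that its parental origin was not analysed here. In embryo TAR1 had 7 and 1 reads in Col x Col, 0 and 18 in C24(Col) x C24(Col) and a single read in the 4 libraries with a C24 nucleus, and it was not called.

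YUC10 and TAA1 were also higher in endosperm with a Col nucleus, by smaller factors. YUC10 had 11.2 and 8.11 CPM in Col x Col and 11.8 and 14.7 CPM in C24(Col) x C24(Col), against 5.69 and 3.16 CPM in C24 x C24 and 5.53 and 4.80 CPM in Col(C24) x Col(C24). All 4 Col values were above all 4 C24 values. The log2 difference was 1.15 ± 0.46 in the standard set (adjusted p = 0.16) and 1.33 ± 0.45 in the CNS set (adjusted p = 0.086), neither called, and 1.24 ± 0.32 over both (adjusted p = 0.014). TAA1 had 156 and 62.6 CPM in Col x Col and 129 and 189.7 CPM in C24(Col) x C24(Col), against 74.3 and 93.0 CPM in C24 x C24 and 62.1 and 75.6 CPM in Col(C24) x Col(C24). One Col x Col library lay among the C24 values. TAA1 was called over both sets (0.79 ± 0.26, adjusted p = 0.043) and not within either (0.40 ± 0.36 in the standard and 1.18 ± 0.37 in the CNS set, adjusted p = 0.58 and 0.065). With the replicate number as a block the CNS value was 1.16 ± 0.28 (adjusted p = 0.014). The call over both sets was lost when any of 6 of the 8 libraries was left out, with values of 0.39 to 0.89, the lowest without Col x Col replicate 1, and with library totals in place of TMM (0.58). The call of YUC10 was lost without Col x Col replicate 1 (1.11) or C24 x C24 replicate 2 (1.07).

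In endosperm, 1 of the 6 tested members was called between nuclei in the standard set, beside 7.96% of the 21210 genes tested, 1 in the CNS set beside 7.90%, and 3 over both sets beside 20.8%. All 3 were higher with the Col nucleus, as were 2295 of the 4405 genes called (10.8% of all genes tested). The 12 endosperm markers also summed higher with the Col nucleus in endosperm, at 1907 to 2946 CPM, than with the C24 nucleus, at 1536 to 1778 CPM. Their part in the result was not tested. Embryo markers in the same endosperm libraries overlapped, at 81.2 to 144 CPM with the Col nucleus and 86.3 to 144 CPM with the C24 nucleus.

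**Figure D3:**
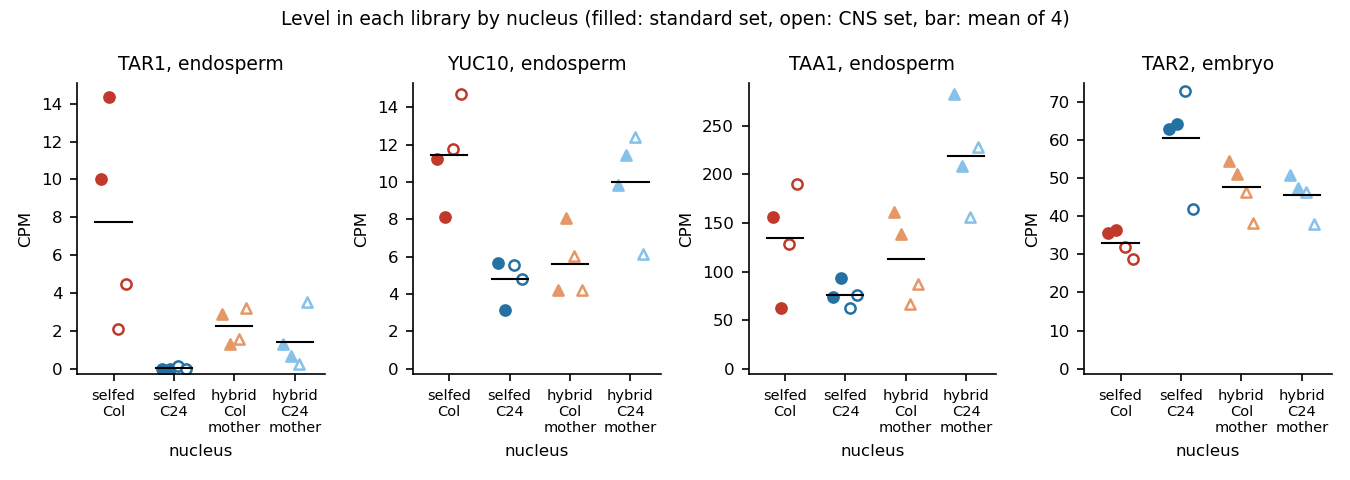
CPM in each library of TAR1, YUC10 and TAA1 in endosperm and TAR2 in embryo, by nucleus of selfed seeds (circles) and of the mother of hybrid seeds (triangles), with filled symbols for the standard set, open ones for the CNS set and a bar at the mean of 4. TAR1 is at or near 0 in the 4 selfed endosperm libraries with a C24 nucleus, and TAR2 in embryo is lower in the 4 selfed libraries with a Col nucleus than in the 4 with a C24 nucleus.

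In embryo TAR2 was called between nuclei in each set. It had 35.5 and 36.2 CPM in Col x Col and 31.9 and 28.7 CPM in C24(Col) x C24(Col), against 62.8 and 64.2 CPM in C24 x C24 and 72.7 and 41.8 CPM in Col(C24) x Col(C24). All Col values were below all C24 values. The log2 difference was -0.88 ± 0.20 in the standard set (adjusted p = 0.025), -0.95 ± 0.20 in the CNS set (adjusted p = 0.013) and -0.92 ± 0.14 over both (adjusted p = 0.0009). The standard call was lost without any one of its 4 libraries (-0.91 to -0.85), with the adjusted p past the threshold while the difference held its size. With library totals in place of TMM both calls were lost, at -0.89 and -0.93. The CNS call was also lost without either C24(Col) x C24(Col) library (-1.03 and -0.87) and without Col(C24) x Col(C24) replicate 1, where the difference was -0.57. Standard hybrid embryos lay between the selfed parents and CNS hybrid embryos overlapped Col(C24) x Col(C24), at 54.6 and 51.1 CPM in Col x C24, 46.4 and 38.2 CPM in Col or C24(Col) x Col(C24), 50.8 and 47.5 CPM in C24 x Col and 46.3 and 37.9 CPM in Col(C24) x Col. In endosperm TAR2 had 0.747 and 1.04 CPM in Col x Col and 4.67 and 3.599 CPM in C24 x C24, yet 0 to 1.30 CPM in C24(Col) x C24(Col) and 0 to 2.65 CPM in Col(C24) x Col(C24), and was not called.

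YUC10 was called in embryo over both sets, from few reads. It had 14 and 17 reads in Col x Col and 10 and 56 in C24(Col) x C24(Col), against 1 and 1 in C24 x C24 and 3 and 0 in Col(C24) x Col(C24). The log2 difference was 4.14 ± 1.19 (adjusted p = 0.043), and it lost its call without 7 of the 8 libraries, with 3.1 without C24(Col) x C24(Col) replicate 2. Endosperm markers in these embryo libraries summed to 85.6 to 203 CPM with the Col nucleus and 83.0 to 137 CPM with the C24 nucleus, and their part was not tested. The main embryo genes other than TAR2 did not pass the test over both sets, with values of 0.01 ± 0.18 for YUC4, 0.36 ± 0.20 for YUC1 (0.37 ± 0.12 and adjusted p = 0.047 with the replicate number as a block) and -0.32 ± 0.21 for TAA1. Between nuclei in embryo, 1 of 7 tested members was called in the standard set beside 4.04% of 19942 genes, 1 in the CNS set beside 4.51% and 2 over both beside 10.9%.

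The nucleus difference was also compared between the sets, as CNS minus standard. Since each nucleus sits in its own cytoplasm in the standard set and in the other one in the CNS set, this value is the C24 minus Col cytoplasm difference summed over both nuclei. A dependence of the nucleus effect on the cytoplasm cannot be told apart from a difference between the sets and was not tested. No member was called, in endosperm (0 of 6, none at an unadjusted p under 0.05, 0.00471% of genes called) or in embryo (0 of 7, none at an unadjusted p under 0.05, 0.0351% of genes), and by DESeq2 the count was 0 as well. TAR1 in endosperm came nearest, with -5.93 ± 2.78 (adjusted p = 1 by edgeR), a value that rests on C24 x C24 libraries without a read. For YUC10 in endosperm the 95% interval of this cytoplasm sum ran from -1.06 to 1.42 on the log2 scale, and for TAR2 in embryo from -0.62 to 0.47. The difference of the nucleus effect between the tissues was called for none of 7 members (4.17% of genes), with 1.06 ± 0.36 for TAA1 (adjusted p = 0.1) and -2.91 ± 1.02 for YUC10 (adjusted p = 0.11). Both had an unadjusted p under 0.05, and DESeq2 called both, while with the replicate number as a block TAA1 had 1.05 ± 0.32 (adjusted p = 0.048). For TAR2 the value was -0.73 ± 0.92 (adjusted p = 0.79), and for TAR1 and YUC8 it could not be fitted. A difference between tissues in the nucleus effects of TAR2, TAR1 and YUC8 is thus not shown.

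Reciprocal hybrids share their nuclear alleles and differ in which parent gave which. In endosperm they also differ in allele dose, with 2 maternal copies to 1 paternal. Their cytoplasm differs too in the standard set and for replicate 2 of the CNS crosses, so that parent of origin, dose and cytoplasm cannot be told apart in total levels. In endosperm TAA1 had 161 and 139 CPM in Col x C24, 66.8 CPM in ColxCol(C24) and 87.3 CPM in C24(Col)xCol(C24), against 283 and 208 CPM in C24 x Col and 156 and 228.5 CPM in Col(C24) x Col. Within each set both libraries with a Col-nucleus mother were below both with a C24-nucleus mother. The log2 difference was -0.74 ± 0.36 in the standard set (adjusted p = 0.68) and -1.33 ± 0.37 in the CNS set (adjusted p = 0.15; -1.32 ± 0.28 and adjusted p = 0.027 with the replicate number as a block). In each set none of the 6 tested members was called (0.222% and 0.325% of genes); at an unadjusted p under 0.05 there were 0 in the standard and 2 in the CNS set, and DESeq2 called 0 and 2. The mean over both sets, added after these values were seen, was -1.03 ± 0.26 (adjusted p = 0.042; 1 of 6 members, beside 3.35% of genes). It lost its call without 7 of the 8 libraries, with values of -1.13 to -0.87.

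YUC10 went the same way with -0.84 ± 0.32 over both sets but was not called (adjusted p = 0.18), at 4.19 and 8.06 CPM in Col x C24, 6.02 CPM in ColxCol(C24) and 4.21 CPM in C24(Col)xCol(C24), against 9.85 and 11.5 CPM in C24 x Col and 12.4 and 6.16 CPM in Col(C24) x Col. Within each set the directions did not overlap, and with both sets pooled they did, as was so for TAA1. YUC4 in endosperm had 1 and 8 reads in Col x C24 and 8 and 33 in Col or C24(Col) x Col(C24), against 1 and 1 in C24 x Col and none in Col(C24) x Col (adjusted p = 0.062 over both sets). The embryo markers in these libraries summed to 67.7 to 186 CPM with a Col-nucleus mother and 59.9 to 100 CPM with a C24-nucleus mother, and their part was not tested. In embryo no member was called between the directions (0 of 7 in each set and over both, none at an unadjusted p under 0.05 and none by DESeq2, beside 0.00501% of genes in the standard set and 0.0% in the CNS set and over both). There YUC4 had 21.9 and 22.1 CPM in Col x C24 and 24.4 and 19.9 CPM in C24 x Col. TAR1 had no read in any hybrid embryo library, so that it could not be called.

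Hybrids were also compared with the mean of the selfed groups of their set. In the standard set these were the selfed parents. In the CNS set the selfed line with a Col nucleus was C24(Col), with C24 cytoplasm. ColxCol(C24) and Col(C24) x Col had Col itself as a parent, so that their value is not one against both parents. In standard endosperm TAA1 was 139 to 283 CPM in the 4 hybrid libraries and 62.6 to 156 CPM in the 4 selfed ones, with a log2 difference of 1.01 ± 0.26 that missed the threshold (adjusted p = 0.13). In the CNS set it was 0.22 ± 0.26 (adjusted p = 0.88). No member was called in either set or tissue by edgeR, beside 0.717% and 0.698% of genes in endosperm and 0.471% and 0.732% in embryo. The value of TAR1 in CNS embryo could not be fitted. At an unadjusted p under 0.05 there were 1 and 2 members in endosperm and 0 and 1 in embryo. TAA1 in standard endosperm was called by DESeq2 (adjusted p = 0.014), without the filter on low counts and without Col x Col replicate 1.

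Reads that carry a variant between Col and C24 tell the parental copies apart. Per hybrid library 1.42 to 6.19 M nuclear reads were assigned to an allele, and shares are given with exact Clopper-Pearson intervals at 95%, which like the floors cover counting error only. In endosperm the median gene of each library had a paternal share of 30.0% to 36.8%, near the 1 in 3 that its genomes give, and in embryo 46.4% to 52.8%. YUC10 in endosperm was read almost wholly from the father. It had 0 maternal and 13 paternal reads and 0 and 73 in Col x C24 libraries, 17 and 64 in ColxCol(C24) and 0 and 24 in C24(Col)xCol(C24). C24 x Col had 0 and 48 and 5 and 181, and Col(C24) x Col had 6 and 133 and 0 and 107. The paternal copy led in all 8 libraries, whether it was the Col or the C24 copy.

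The paternal share of YUC10 was 99.3% ± 1.35 in the standard set and 93.7% ± 9.99 in the CNS set (SD, n = 4 libraries each). It was lowest in ColxCol(C24), at 79.0% (interval 68.5% to 87.3%), which lay below the other 7 libraries, at 95.7% to 100%. Where no maternal read was seen, 3 counts would allow a maternal share of up to 2.80% in the deepest of those libraries and 23.1% in the shallowest. Against the 2:1 genome ratio the maternal minus paternal log2 difference was -7.05 ± 1.04 in the standard set (adjusted p = 0.00039) and -5.24 ± 0.87 in the CNS set (adjusted p = 0.0014), in edgeR's model of allele counts. YUC10 was the one member with enough allele reads to be tested in endosperm, beside calls for 2.93% of the 7913 genes in the standard and 3.11% in the CNS set. In the paternal direction these were 1.45% and 1.73%. The Col and C24 copies themselves did not differ at the threshold (0.56 ± 0.76, adjusted p = 0.7; 18.5% of genes called). In embryo YUC10 had 16 paternal and 0 maternal reads over 8 libraries, too few for a test. Endosperm markers summed to 73.2 to 203 CPM in the 16 embryo libraries, and the part of endosperm RNA in these reads was not tested.

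**Figure D4:**
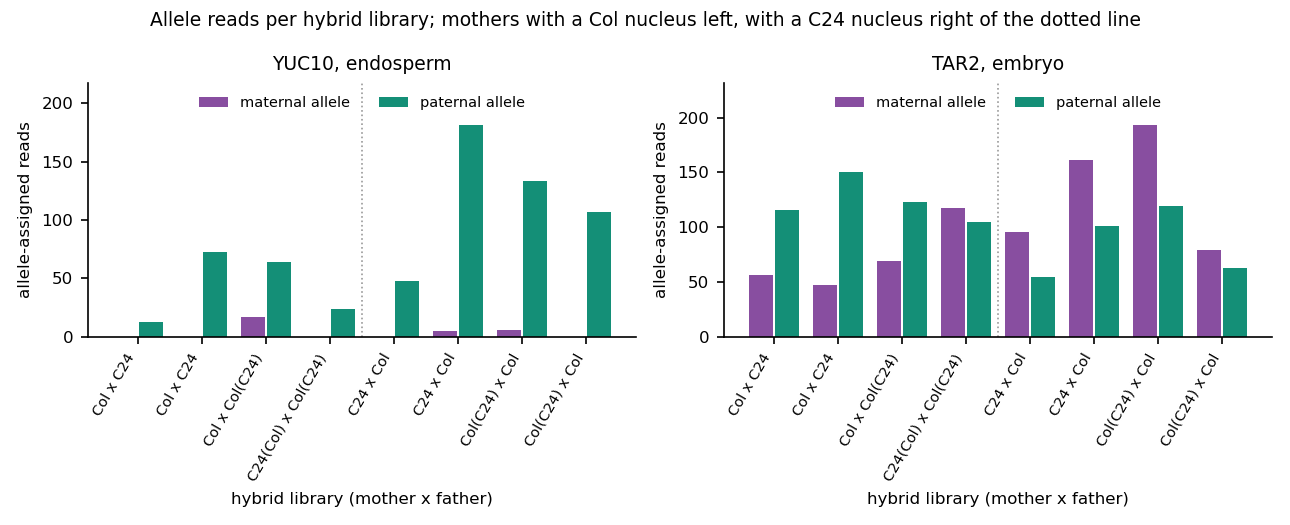
Maternal and paternal reads of YUC10 in endosperm and TAR2 in embryo in each of the 8 hybrid libraries of that tissue, with Col-nucleus mothers left and C24-nucleus mothers right of the dotted line. The paternal bar of YUC10 is the higher one in all 8 libraries, while the higher bar of TAR2 is that of the C24 copy in 7 of 8.

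TAA1 carried few allele reads for its level, 94 in endosperm and 52 in embryo. In endosperm 24 were maternal and 70 paternal, and the paternal reads were in the majority in each of the 7 libraries with any. Single libraries gave 3 maternal and 13 paternal reads in Col x C24, 7 and 11 reads in one of C24 x Col and 12 and 23 reads in one of Col(C24) x Col. TAA1 did not reach 10 allele reads in every library and was not tested in the main fit. In embryo 26 were maternal and 26 paternal. There C24(Col)xCol(C24) had 21 maternal reads and no paternal one, all of the Col copy, and Col(C24) x Col replicate 2 had 11 paternal reads and no maternal one, again all Col.

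In embryo TAR2, YUC4 and YUC1 had enough allele reads, and none differed by parent of origin at the threshold (0 of 3 in each set, none at an unadjusted p under 0.05; 0.328% and 0.252% of the 9145 genes tested were called). YUC4 had 646 maternal and 738 paternal reads over 8 libraries, with maternal minus paternal log2 differences of -0.11 ± 0.21 in the standard and -0.28 ± 0.20 in the CNS set. YUC1 had 108 maternal and 123 paternal reads. TAR2 had 819 maternal and 832 paternal reads, and its interval reached from -0.76 to 0.15 in the standard set and from -0.34 to 0.55 in the CNS set.

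TAR2 differed instead by accession. It had 628 Col and 1023 C24 reads in hybrid embryos, with a Col share of 32.9% ± 6.48 in the standard and 42.8% ± 7.604 in the CNS set (n = 4 libraries each). The Col copy was the lower one in 7 of 8 libraries, the exception being C24(Col)xCol(C24) with 118 Col and 105 C24 reads. The Col minus C24 log2 difference within hybrids was -0.73 ± 0.16 (adjusted p = 0.0033), beside -0.92 ± 0.14 between the selfed nuclei. Of all genes 22.3% were called between the copies and 4.57% had the Col copy lower, and TAR2 was 1 of 3 members tested. In the CNS crosses alone it was -0.42 ± 0.24 and was not called (adjusted p = 0.37). YUC4 (0.18 ± 0.14, adjusted p = 0.43) and YUC1 (-0.74 ± 0.42, adjusted p = 0.26) were not called. The median C24 share of the genes within 250000 bases of each member lay within -7.15 to 6.11 points of the library's own share in all 16 hybrid libraries.

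The genes most like each member over the 16 group means were taken by Pearson's r of log2(CPM + 0.5), out of 17861 genes, as a description in which the tissue gap carries much of r. TAA1 was most like the carboxylesterase gene CXE12 (r = 0.983) and the casein kinase gene CKI1 at AT4G14340 (0.979). YUC10 was most like AT2G02515 (0.992) and AT4G32870 (0.989), and TAR1 was most like AT3G47140 (0.975) and the meiotic gene ATSPO11-1 (0.971). TAR2 was nearest to the zinc finger gene NTT (0.995) and the kinase gene PID2 (0.993). YUC4 was nearest to the cyclin gene CYCD3;1 and the organ growth gene ANT (0.996 each), and YUC1 to AT2G25480 (0.998) and the bromodomain gene IMB1 (0.996). YUC8, with few reads, had its nearest at 0.951 (AT3G04450) and 0.947 (AT1G56680).

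Between nuclei in endosperm, the rest of the auxin route moved in both directions, and its counts are read beside the 20.8% of all genes called in endosperm and 10.9% in embryo over both sets. In endosperm, 3 of 17 tested genes of tryptophan synthesis and side routes rose with the Col nucleus and 4 fell, with ASB1, a subunit of anthranilate synthase, at 2.03 ± 0.39, TRP1 at 1.22 ± 0.25 and VAS1 at 0.75 ± 0.22, and with NIT4 at -3.11 ± 0.36 and PAI1 at -2.25 ± 0.32. Of 17 inactivation and release genes 2 rose and 2 fell, among them the amidohydrolase genes ILL3 (1.64 ± 0.32) and ILR1 (-0.99 ± 0.29), which release auxin from conjugates. The others were ILL1 (-0.59 ± 0.17) and DAO2 (8.3 ± 1.94), the latter with a mean of only 0.66 CPM in endosperm. Of 14 genes of auxin reception and response 1 rose, BDL (0.69 ± 0.20), and 2 fell, TIR1 (-0.90 ± 0.19) and AFB3 (-0.72 ± 0.22). The list medians were -0.03, 0.18 and -0.32, beside -0.04 for all genes. In embryo 2 rose and 4 fell of 17, 2 rose and 1 fell of 18, and 1 rose of 14, with ASB1 at 1.80 ± 0.14 and PAI1 at -0.96 ± 0.15 in the same directions as in endosperm and ILL3 at -0.96 ± 0.27 in the opposite one. In edgeR's test the nucleus effect differed between endosperm and embryo for ILL3 (2.56 ± 0.44, adjusted p = 0.0024) and TRP1 (1.16 ± 0.27, adjusted p = 0.019). It also did for PAI1 (-1.34 ± 0.31, adjusted p = 0.017) and AFB3 (-0.88 ± 0.23, adjusted p = 0.033), beside 4.17% of all genes called. PAI1 belongs to a family of near-identical copies, so that its reads may be split between them.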

How the data were processed

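The authors deposited raw read counts per gene for 32 libraries and, for the 16 hybrid libraries, read counts for the Col and the C24 allele. Per the submitters' processing notes, which give no versions, the tools were Trimmomatic, STAR, HTSeq and edgeR on TAIR10; how reads were split by allele is not stated. The 5 closing summary lines stayed out of library sizes; reads with no feature were 2.28% to 17.7% of all counts. Of 33602 genes, 32835 matched the RefSeq table.

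Counts were fitted with edgeR 4.0.16 (R 4.3.3; quasi-likelihood, TMM, filterByExpr with a minimum count of 10), 1 fit per tissue for comparisons within it, 1 per set for tissues and 1 of all 32 libraries for interactions with tissue, with DESeq2 1.42.0 as an alternative. Allele counts were fitted with the library as a block, a Col term and an offset of 2:1 in endosperm, for genes with 10 allele reads in each library. The methods were tested on simulated data. Same-numbered libraries deviated together (r of 0.118 to 0.551 in all pairs of embryo, of CNS endosperm and of a cross between tissues), except in standard endosperm (-0.092 to 0.3). Members and lists were chosen with earlier results of these data known. Named genes are the members, the 2 most like each member, and genes picked from the called ones with the largest change, up to 3 per list and direction.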

Additional observations from a re-analysis of the deposited data

How the results depend on the processing

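Of 398 alternative values of called members, 358 kept their direction and call, 40 kept the direction and lost the call, and 0 reversed. Under the replicate block, 2 members were called between nuclei in CNS endosperm (TAA1 joined TAR1), 1 in the cross direction of CNS endosperm and 1 between hybrids and selfed standard endosperm (TAA1 in each), and 1 for the nucleus effect between tissues (TAA1); it added YUC1 between nuclei in embryo over both sets and moved no other count by over 1.5 times. In standard endosperm same-numbered libraries deviated together less evenly, with r of -0.092 to 0.3 between groups. The labels do not say what such libraries share. Without the filter on low counts the first 3 of these comparisons gave 2, 1 and 1, and by DESeq2 3, 2 and 1, with 2 for the nucleus effect between tissues and 2 for the cross direction over both sets in endosperm. Library totals in place of TMM left 0 called between nuclei in standard embryo, 0 in CNS embryo and 1 over both sets in embryo. Fits of the compared groups alone gave 2 in standard endosperm, 0 in CNS endosperm, 0 in CNS embryo and 1 over both sets in embryo. The CNS crosses alone gave 0 for the Col against C24 copies in embryo. The causes were not tested.

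Leaving out 1 library at a time, the count of members called between nuclei was 0 to 2 in CNS endosperm, 1 to 3 over both sets in endosperm, 0 to 0 in standard embryo, 0 to 1 in CNS embryo and 1 to 2 over both sets in embryo. In standard endosperm it stayed at 1 to 1 (TAR1). It was 0 to 1 for the cross direction over both sets in endosperm, for hybrids against selfed standard endosperm and for the nucleus effect between tissues. The maternal and paternal calls of YUC10 stayed at 1 to 1 in each set. YUC2, YUC9 and YUC11 lie at or under the depth.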
